A study of Mus musculus with 4 samples.

Results

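The insulin-like growth factor (IGF) family was measured in FAP+ stromal cells of mouse pancreatic tumours as 10 genes, namely the ligands Igf1 and Igf2, the receptors Igf1r and Igf2r, and the binding proteins Igfbp2 to Igfbp7. They were taken from a table of 22609 genes by the lower-case names igf1, igf2, igf1r, igf2r, igfbp2, igfbp3, igfbp4, igfbp5, igfbp6 and igfbp7, and all 10 were found. The cells were sorted by FAP, the surface protease fibroblast activation protein, which marks tumour stroma, from pancreatic ductal adenocarcinoma of a spontaneous mouse model on the C57BL/6 background. They formed 2 groups, FAP+ CD34+ cells and FAP+ CD34- cells, with 2 libraries each, which the titles call biological replicates 1 and 2. The alleles of the model, the age and sex of the animals and the number of animals per library are not stated in the sources used here, so the p-values measure the spread between these libraries. Before sequencing, the RNA was amplified linearly (MessageAmp).

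IGF1 and IGF2 are secreted peptides that signal growth and survival through the tyrosine kinase receptor IGF1R. IGF2R, also the cation-independent mannose 6-phosphate receptor, takes IGF2 up for degradation and carries no kinase. The binding proteins hold most IGF outside the cell and either keep it from the receptor or release it when proteases cut them, and in pancreatic tumours stromal cells are a known source of IGFs.

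The CD34+ libraries held 10322354 and 13649942 counts and the CD34- libraries 13218444 and 14633561. Levels are CPM (counts scaled to the column total) unless RPKM (reads scaled to gene length and library, as the authors deposited them) is named, and levels of different genes are compared only in RPKM. The summed CPM of 10 fibroblast markers lay between 43904 and 45179 in CD34+ libraries and between 42592 and 45911 in CD34- libraries. Collagen genes weigh most in this sum. Of these markers 5 had a positive log2 fold change and 5 a negative one. Pdgfrb was 296 and 330 CPM in CD34+ libraries and 599 and 486 CPM in CD34- libraries. Pdpn lay the other way, at 741 and 501 CPM in CD34+ libraries and 184 and 374 CPM in CD34- libraries. Cd34 itself was 143 and 293 CPM in CD34+ libraries and 18.3 and 23.9 CPM in CD34- libraries. Fap was 79.0 and 39.8 CPM in CD34+ libraries and 142 and 136 CPM in CD34- libraries. Sex-linked genes followed the replicate number, with Xist at 232 and 2.64 CPM in CD34+ replicates 1 and 2 and at 163 and 0.273 CPM in CD34- replicates 1 and 2. Ddx3y, a gene of the Y chromosome, was 34.7 and 153 CPM in CD34+ replicates 1 and 2 and 38.7 and 157 CPM in CD34- replicates 1 and 2. In bulk RNA of this kind, fewer cells of a type and less RNA per cell cannot be told apart.

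Binding proteins made up most of the family's RNA. Igfbp7 was the most abundant member in each of the 4 libraries, at 3740 ± 995 RPKM (SD, n = 4 libraries), and stood between rank 2 and rank 4 of all 22609 genes. Igfbp4 followed with 1118 ± 426 RPKM and Igfbp3 with 1047 ± 584 RPKM, a difference within the spread of both. Igfbp6 was next at 228 ± 143 RPKM. Igf2 (68.2 ± 70.2 RPKM), Igfbp5 (58.3 ± 37.7 RPKM), Igf1 (51.6 ± 28.5 RPKM) and Igfbp2 (48.8 ± 20.7 RPKM) had overlapping spreads over the 4 libraries, but the order within a fraction differed. In CD34+ libraries Igfbp5, at 23.5 and 29.1 RPKM, was below Igf1 (33.3 and 92.9 RPKM) and Igfbp2 (52.0 and 41.4 RPKM). In CD34- libraries Igfbp5, at 98.5 and 82.3 RPKM, was above Igf1 (32.1 and 47.9 RPKM) and Igfbp2 (26.4 and 75.6 RPKM). The receptors were lowest, with Igf2r at 16.5 ± 5.63 RPKM and Igf1r at 5.81 ± 0.876 RPKM (SD, n = 4 libraries each). The exception was Igf2 in CD34- replicate 1, whose 2.21 RPKM lay below Igf1r. The 6 binding protein genes together took 1.36% and 1.34% of all counts in CD34+ replicates 1 and 2, against 1.11% and 1.62% in CD34- replicates 1 and 2, so the groups overlapped.

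**Figure D1:**
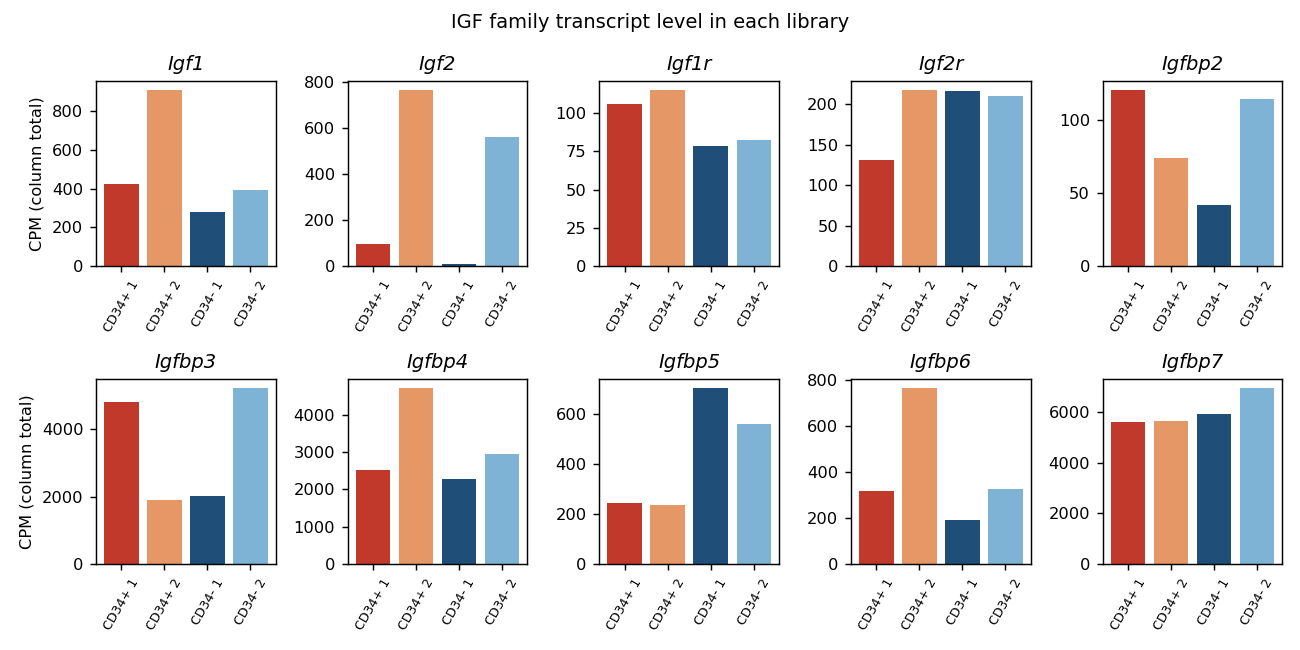
Level of each IGF family gene in CPM of the column total (y axis, from 0, own scale per gene) in the 4 libraries (x axis: CD34+ replicates 1 and 2, CD34- replicates 1 and 2); each bar is 1 library. Igfbp5 was 245 and 234 CPM in CD34+ libraries and 705 and 559 CPM in CD34- libraries, whereas Igf2 followed the replicate number.

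Igfbp5 had the smallest p of the family. It encodes a binding protein that also attaches to extracellular matrix and is common in mesenchymal and mural cells. It was 245 and 234 CPM in CD34+ replicates 1 and 2, against 705 and 559 CPM in CD34- replicates 1 and 2. Both CD34+ libraries were below both CD34- libraries, and within the same replicate number the CD34+ level was 0.348 and 0.419 of the CD34- level. The log2 fold change (CD34+ over CD34-) was -1.37 (SE 0.28), and it did not pass (adjusted p = 0.173 over all 13875 tested genes, edgeR quasi-likelihood test with Benjamini-Hochberg adjustment). DESeq2 called it lower (adjusted p = 0.0013), as did edgeR without a filter on low counts (0.037) and limma on log2 of RPKM + 1 (0.032). These settings called 1.3%, 0.653% and 1.01% of all tested genes lower and 2.85%, 0.924% and 0.414% higher. The log2 fold change lay between -1.78 and -1.30 over 15 alternatives. The groups were apart in all 4 units compared, which were CPM of the column total, TMM-scaled CPM, RPKM and FPKM. For a given gene, both kinds of CPM and RPKM differ only by a factor per library, so these are not separate checks. On log2 of RPKM + 1, FPKM + 1 and RPKM + 0.1 the log2 fold change of the median gene was -0.41, -0.41 and -0.49. The Igfbp5 values on these scales include that shift. The summed level of 8 of 8 pericyte markers lay the same way, at 393 and 315 CPM in CD34+ libraries and 489 and 565 CPM in CD34- libraries, with none at 0. Of these genes 5 had a negative log2 fold change and 3 (Abcc9, Kcnj8 and Notch3) a positive one. Rgs5 was 2.13 and 7.33 CPM in CD34+ libraries and 45.5 and 89.7 CPM in CD34- libraries. By mean RPKM, Ndufa4l2 was the most abundant of these markers. It was 7.79 and 18.5 RPKM in CD34+ libraries and 69.5 and 40.6 RPKM in CD34- libraries. Cspg4 overlapped between the groups (243 and 51.9 CPM in CD34+ libraries, 139 and 196 CPM in CD34- libraries). The part of the pericyte markers in the Igfbp5 difference was not tested.

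Igfbp6 encodes the binding protein that prefers IGF2 over IGF1. It lay the other way, at 320 and 769 CPM in CD34+ replicates 1 and 2, against 191 and 327 CPM in CD34- replicates 1 and 2. The groups overlapped, because CD34+ replicate 1 was below CD34- replicate 2, while within the same replicate number the CD34+ level was 1.67 and 2.35 times the CD34- level. The log2 fold change was 1.06 (SE 0.51, adjusted p = 0.355, edgeR). It was 0.30 without CD34+ replicate 2 and 1.59 without CD34- replicate 2.

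The sequences before the starts of both genes are shown because, among the binding proteins, Igfbp5 had the edgeR log2 fold change farthest below 0 and Igfbp6 the one farthest above 0. They are the 250 bases before the RefSeq start in the GRCm38.p6 assembly, 5′ to 3′ on the strand of the gene, and the deposited tables used the build mm9. Igfbp5 is at chr1:72874866-72875115 on the minus strand and Igfbp6 at chr15:102143936-102144185 on the plus strand. Capitals mark matches on either strand to any of the motifs searched. The letters TATTTAA were the first motif searched. The common form of the TATA box was searched as TATAAA. The GC box, to which Sp1 family factors bind, was searched as GGGCGG. The E-box, to which basic helix-loop-helix factors bind, was searched as CACGTG, which 6.02% of windows held and none of those printed here.
Igfbp5: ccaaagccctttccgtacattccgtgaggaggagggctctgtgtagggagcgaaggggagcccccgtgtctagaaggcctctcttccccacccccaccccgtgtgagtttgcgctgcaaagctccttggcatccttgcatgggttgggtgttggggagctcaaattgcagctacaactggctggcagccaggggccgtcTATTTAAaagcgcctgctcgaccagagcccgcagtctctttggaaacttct
Igfbp6: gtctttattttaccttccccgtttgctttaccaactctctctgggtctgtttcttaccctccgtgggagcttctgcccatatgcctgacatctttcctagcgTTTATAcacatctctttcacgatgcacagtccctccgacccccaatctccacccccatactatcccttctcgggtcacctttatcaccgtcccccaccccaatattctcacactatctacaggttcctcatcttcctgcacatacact
Igfbp5 held TATTTAA starting 51 bases before the start, a motif chosen after this sequence was seen, and 4.18% of 32851 windows of this length held it on either strand. Igfbp6 held TATAAA on the opposite strand, printed as TTTATA starting 148 bases before the start, and 12.4% of windows held it. Igfbp5 had 10 CG pairs and Igfbp6 had 7, where the median window had 6. These are matches of letters, and no binding was measured.

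The remaining binding proteins did not pass the test. Igfbp3, the main IGF carrier of serum, was 4796 and 1897 CPM in CD34+ replicates 1 and 2, against 2006 and 5239 CPM in CD34- replicates 1 and 2. The order turned round with the replicate number, as the CD34+ level was 2.39 times the CD34- level in replicate 1 and 0.362 times in replicate 2. The log2 fold change came to -0.12 (SE 0.67, adjusted p = 0.943, edgeR). Igfbp2, a binding protein with an integrin-binding motif, behaved alike at 121 and 74.2 CPM in CD34+ replicates 1 and 2, against 42.1 and 114 CPM in CD34- replicates 1 and 2 (log2 fold change 0.31, SE 0.54, adjusted p = 0.793, edgeR). Both had the 2 high values in CD34+ replicate 1 and CD34- replicate 2. Igfbp4, a binding protein that PAPP-A cuts, was 2523 and 4724 CPM in CD34+ replicates 1 and 2, against 2272 and 2937 CPM in CD34- replicates 1 and 2. The groups overlapped (log2 fold change 0.48, SE 0.45, adjusted p = 0.609, edgeR). Igfbp7, a secreted protein of vessels and stroma that binds IGF weakly, was the steadiest binding protein at 5638 and 5673 CPM in CD34+ libraries and 5922 and 6986 CPM in CD34- libraries. Those groups did not overlap by CPM of the column total, RPKM or FPKM but did after TMM scaling (log2 fold change -0.18, SE 0.40, adjusted p = 0.843, edgeR). On log2 of RPKM + 1 and FPKM + 1 the log2 fold change was -0.58 and -0.86 (adjusted p = 0.409 and 0.258, limma), where that of the median gene was -0.41 on both.

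Shares within a library do not depend on the scaling between libraries, but they do depend on the unit. Of the summed RPKM of the 6 binding protein genes, Igfbp7 made up 56.6% and 55.4% in CD34+ replicates 1 and 2, against 68.7% and 59.0% in CD34- replicates 1 and 2. Igfbp5 made up 0.510% and 0.474% in CD34+ libraries and 1.70% and 0.978% in CD34- libraries. Igfbp6 made up 3.02% and 7.07% in CD34+ libraries and 2.09% and 2.60% in CD34- libraries. Igfbp2 made up 1.13% and 0.675% in CD34+ libraries and 0.454% and 0.898% in CD34- libraries, which overlapped. Igfbp3 made up 23.9% and 9.22% in CD34+ replicates 1 and 2, against 11.6% and 22.0% in CD34- replicates 1 and 2. Igfbp4 made up 14.9% and 27.1% in CD34+ libraries and 15.5% and 14.6% in CD34- libraries, so both overlapped. By FPKM the share of Igfbp7 was 70.6% and 67.2% in CD34+ libraries and 80.4% and 77.0% in CD34- libraries. That of Igfbp3 was 13.6% and 4.85% in CD34+ libraries and 5.36% and 8.94% in CD34- libraries. That of Igfbp5 was 0.279% and 0.237% in CD34+ libraries and 0.781% and 0.400% in CD34- libraries. The order of the fractions for Igfbp5 and Igfbp7 was thus that of the RPKM shares. The ratio of Igfbp6 to Igfbp5 in RPKM, chosen after the values were seen, was 5.91 and 14.9 in CD34+ libraries and 1.23 and 2.66 in CD34- libraries.

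**Figure D2:**
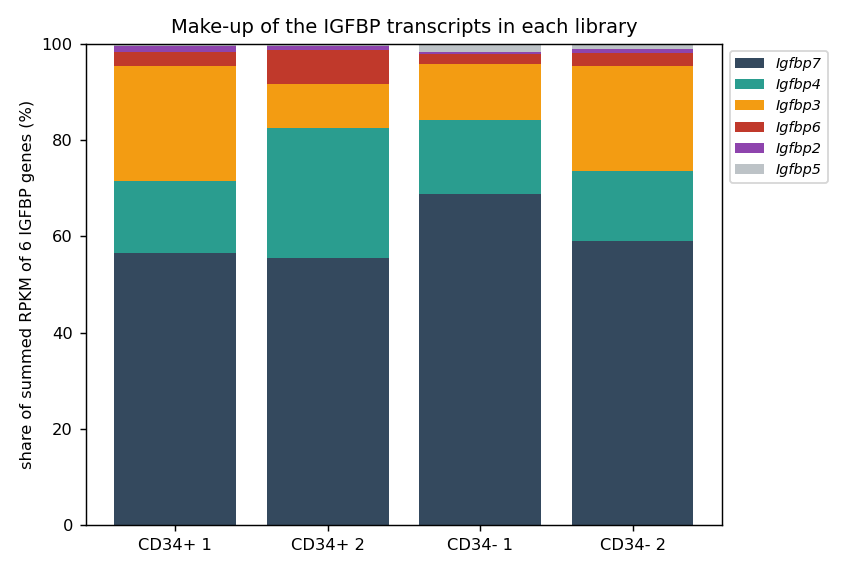
Share of each of the 6 binding protein genes in their summed RPKM (y axis, percent) in each library (x axis: CD34+ replicates 1 and 2, CD34- replicates 1 and 2); colours are genes. Igfbp7 took 55.4% to 56.6% in CD34+ libraries and 59.0% to 68.7% in CD34- libraries, and Igfbp3 and Igfbp4 changed places between libraries of the same fraction.

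Among the ligands, Igf1 was higher in both CD34+ libraries. It was 423 and 910 CPM in CD34+ replicates 1 and 2, against 280 and 396 CPM in CD34- replicates 1 and 2. The CD34+ level was 1.51 times the CD34- level in replicate 1 and 2.30 times in replicate 2. The log2 fold change was 0.98 (SE 0.45) and did not pass (adjusted p = 0.334, edgeR). On the authors' RPKM the groups overlapped, at 33.3 and 92.9 RPKM in CD34+ libraries and 32.1 and 47.9 RPKM in CD34- libraries, where the log2 fold change was 0.50 (adjusted p = 0.497, limma) and that of the median gene -0.41. By FPKM they were apart, at 33.7 and 71.6 FPKM in CD34+ libraries and 19.9 and 21.8 FPKM in CD34- libraries, with a log2 fold change of 1.20 (adjusted p = 0.205, limma). Without CD34+ replicate 2 the edgeR value was 0.33. Macrophages also express Igf1, and the summed level of 9 myeloid markers was 247 and 155 CPM in CD34+ libraries and 145 and 90.0 CPM in CD34- libraries. Csf1r was 21.2 and 9.30 CPM in CD34+ libraries and 13.0 and 7.18 CPM in CD34- libraries. Ptprc was 5.52 and 3.74 CPM in CD34+ libraries and 2.42 and 1.64 CPM in CD34- libraries, and none of the 9 was at 0. In both fractions this sum was lower in replicate 2. Cd14 was lower there too (115 and 54.2 CPM in CD34+ replicates 1 and 2, 76.1 and 34.8 CPM in CD34- replicates 1 and 2). Lyz2, unlike the other myeloid markers, was higher there (70.9 and 76.1 CPM in CD34+ replicates 1 and 2, 37.9 and 41.8 CPM in CD34- replicates 1 and 2). The summed level of 8 endothelial markers was 86.2 and 70.5 CPM in CD34+ libraries and 38.8 and 44.3 CPM in CD34- libraries, with none at 0. Of these 6 had a positive log2 fold change and 2 a negative one, and Vwf was 27.1 and 16.3 CPM in CD34+ libraries and 3.03 and 3.42 CPM in CD34- libraries. The part of both lists in the Igf1 difference was not tested.

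Igf2 followed the replicate number in both fractions. It was 98.3 and 764 CPM in CD34+ replicates 1 and 2, against 10.9 and 559 CPM in CD34- replicates 1 and 2, the lowest value resting on 144 reads (95% Wilson interval 9.25 to 12.8 CPM, covering counting error only). The level in replicate 2 was 7.77 times that in replicate 1 in CD34+ cells and 51.4 times in CD34- cells. Of 10522 genes with a mean of at least 5 CPM, 24 differed more between the replicates in CD34+ cells and 1 did so in CD34- cells, on log2 of CPM + 1. This contrast was known when the gene was chosen and is given with no test. Within the same replicate number the CD34+ level was 9.03 and 1.37 times the CD34- level, and the log2 fold change of 0.54 had an SE of 1.57 (adjusted p = 0.883, edgeR). It ran from -1.59 without CD34+ replicate 2 to 5.39 without CD34- replicate 2. In RPKM, the ratio of Igf1 to Igf2 was 2.44 and 0.675 in CD34+ replicates 1 and 2, against 14.6 and 0.401 in CD34- replicates 1 and 2, so Igf1 was above Igf2 in the replicate 1 libraries and below it in the replicate 2 libraries of both fractions.

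The replicate 1 libraries differed from the replicate 2 libraries in other ways too. The summed level of 9 epithelial and carcinoma markers was 908 and 579 CPM in CD34+ replicates 1 and 2, against 822 and 429 CPM in CD34- replicates 1 and 2. That of 6 mesothelial markers was 397 and 233 CPM in CD34+ libraries and 249 and 158 CPM in CD34- libraries, with Krt19 in both lists. Upk3b had 33 and 14 reads in CD34+ replicates 1 and 2 and 4 reads in each CD34- library. Msln and Krt19 were lower in replicate 2 of both fractions. Upk1b was higher there (2.52 and 6.37 CPM in CD34+ libraries, 3.71 and 7.52 CPM in CD34- libraries), and Wt1 was higher in CD34- replicate 2 only. Lrrn4 had 26 reads in each CD34+ library. In CD34- replicates 1 and 2 it had 2 and 4 reads, too few to give a direction. Of the epithelial list, Epcam and Cldn7 were higher in CD34- replicate 2, and every other comparison was lower in replicate 2. Lum, a fibroblast proteoglycan gene, was 427 and 1261 CPM in CD34+ replicates 1 and 2, against 599 and 1099 CPM in CD34- replicates 1 and 2. Fibroblast markers did not all go this way, as Col1a1 was 9558 and 3979 CPM in CD34+ replicates 1 and 2, against 5165 and 4185 CPM in CD34- replicates 1 and 2. Both genes were picked after their values were seen. The part of these and of the sex-linked genes in the Igf2 difference was not tested.

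Igf2 lies beside H19, a non-coding RNA gene expressed from the maternal copy, while Igf2 is expressed mainly from the paternal copy. H19 was 146 and 433 CPM in CD34+ replicates 1 and 2, against 219 and 373 CPM in CD34- replicates 1 and 2. It was thus 2.96 and 1.70 times as high in replicate 2 as in replicate 1 in CD34+ and CD34- cells, the same direction as Igf2 by a smaller factor. Igf2as, antisense to Igf2, had 5 and 14 reads in CD34+ libraries and 2 and 22 reads in CD34- libraries, and Ins2, the insulin gene next to Igf2, had 3 and 0 reads in CD34+ libraries and 2 and 0 reads in CD34- libraries. A count of 0 allows up to 3 reads, which is 0.220 and 0.205 CPM in CD34+ and CD34- replicate 2. The sources used here give no strand setting for the counting, so reads of overlapping antisense genes cannot be told apart.

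RefSeq lists 4 starts of Igf2, numbered from the most upstream, and a count per gene does not say which of them a read came from. The 250 bases before each are shown for that reason (GRCm38.p6, minus strand, 5′ to 3′, capitals as above). They are chr7:142666817-142667066, chr7:142661272-142661521, chr7:142658805-142659054 and chr7:142657497-142657746.
Igf2 start 1: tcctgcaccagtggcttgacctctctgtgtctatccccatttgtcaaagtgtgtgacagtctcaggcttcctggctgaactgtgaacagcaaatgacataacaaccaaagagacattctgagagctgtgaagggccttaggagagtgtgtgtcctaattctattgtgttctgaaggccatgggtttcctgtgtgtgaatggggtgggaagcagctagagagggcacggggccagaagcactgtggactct
Igf2 start 2: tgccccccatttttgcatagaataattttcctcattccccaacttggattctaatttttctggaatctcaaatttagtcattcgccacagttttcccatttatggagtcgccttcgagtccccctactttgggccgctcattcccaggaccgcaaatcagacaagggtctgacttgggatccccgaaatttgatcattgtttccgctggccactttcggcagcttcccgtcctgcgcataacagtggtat
Igf2 start 3: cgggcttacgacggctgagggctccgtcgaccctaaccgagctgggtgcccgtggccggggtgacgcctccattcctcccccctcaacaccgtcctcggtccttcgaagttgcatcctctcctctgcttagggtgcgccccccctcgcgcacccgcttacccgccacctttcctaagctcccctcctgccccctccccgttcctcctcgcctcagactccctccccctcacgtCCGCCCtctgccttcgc
Igf2 start 4: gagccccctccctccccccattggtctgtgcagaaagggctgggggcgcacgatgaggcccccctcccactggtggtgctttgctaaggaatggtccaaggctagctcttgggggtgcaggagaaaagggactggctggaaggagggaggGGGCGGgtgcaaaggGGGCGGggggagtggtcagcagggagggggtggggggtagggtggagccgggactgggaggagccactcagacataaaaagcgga
The 4 windows held 1, 10, 22 and 6 CG pairs in this order. GGGCGG, the letters of a GC box, occurred in starts 3 and 4 (1 and 2 matches), and 32.7% of all windows held it.

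The genes closest to Igf2 in pattern were Gkn1, Tac2, Gdf10, Wisp2 and Comp, by the Euclidean distance between log2 of CPM + 1 centred over the 4 libraries, among 10512 other genes with a mean of at least 5 CPM. Their distances ran from 1.70 to 2.16. Gdf10, a BMP-related ligand gene, was 137 and 605 CPM in CD34+ replicates 1 and 2, against 34.1 and 280 CPM in CD34- replicates 1 and 2. Comp, a cartilage matrix protein gene, was 18.6 and 570 CPM in CD34+ replicates 1 and 2, against 14.5 and 161 CPM in CD34- replicates 1 and 2. For Igf1 the closest were Igsf10, Hdac11, Tbxa2r, A930005H10Rik and Tiam1, at distances from 0.176 to 0.224. With 4 libraries many genes can share a pattern. The distance was not scaled to the size of a gene's differences, so the distances for Igf2 and for Igf1 cannot be compared. Gkn1 was 0.151 CPM in CD34- replicate 1, below the 0.227 CPM that 3 reads make there. These are descriptions with no test.

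**Figure D3:**
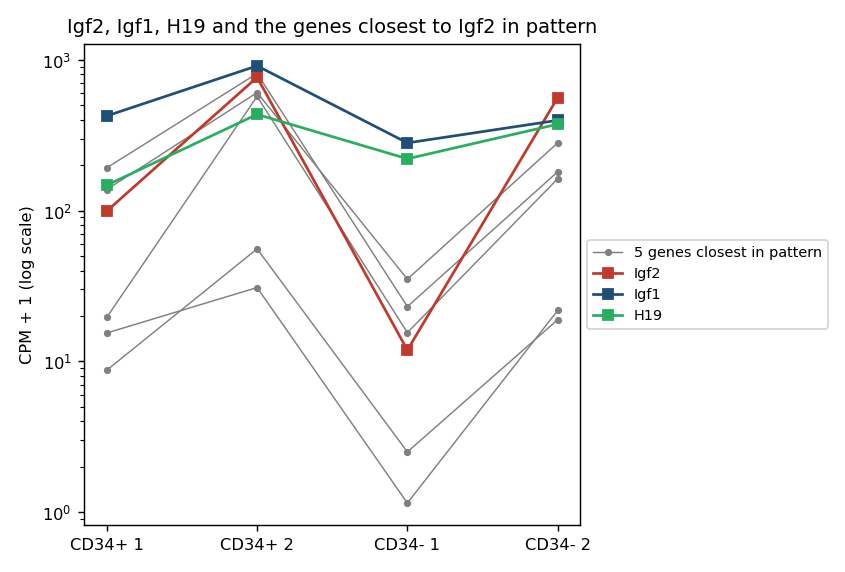
CPM + 1 on a log axis (y) of Igf2, Igf1, H19 and the 5 genes closest to Igf2 in pattern in the 4 libraries (x axis); each point is 1 library, and lines only join the points of a gene. Igf2 reached 764 CPM (CD34+) and 559 CPM (CD34-) in the replicate 2 libraries, and 98.3 CPM (CD34+) and 10.9 CPM (CD34-) in the replicate 1 libraries.

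Igf1r, the signalling receptor of both ligands, varied little within a fraction. It was 106 and 115 CPM in CD34+ replicates 1 and 2, against 78.7 and 82.1 CPM in CD34- replicates 1 and 2. The groups did not overlap, and the log2 fold change of 0.48 (SE 0.23) did not pass (adjusted p = 0.364, edgeR). By RPKM the groups overlapped (4.96 and 6.99 RPKM in CD34+ libraries, 5.37 and 5.91 RPKM in CD34- libraries). Igf2r was 131 and 218 CPM in CD34+ replicates 1 and 2, against 216 and 210 CPM in CD34- replicates 1 and 2, with CD34+ replicate 1 low and the other 3 libraries alike (log2 fold change -0.28, SE 0.31, adjusted p = 0.678, edgeR). By RPKM the groups were apart, at 8.23 and 17.7 RPKM in CD34+ libraries and 19.8 and 20.3 RPKM in CD34- libraries, as they were by FPKM. On log2 of RPKM + 1 and FPKM + 1 the log2 fold change was -0.68 and -0.77 (adjusted p = 0.295 and 0.300, limma). That of the median gene was -0.41 on both scales. The ratio of Igf2r to Igf1r in RPKM, chosen after the values were seen, was 1.66 and 2.54 in CD34+ libraries and 3.69 and 3.43 in CD34- libraries. Airn, the RNA that runs antisense through Igf2r, was 28.0 and 17.9 CPM in CD34+ libraries and 15.4 and 9.70 CPM in CD34- libraries (log2 ratio 0.90, SE 0.36, adjusted p = 0.297, edgeR), and its reads share the strand limit above.

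Over the family, 0 of 10 members passed in either direction, as did 0% of all 13875 tested genes (edgeR). All 10 passed the filter on low counts. At an unadjusted p of 0.05 edgeR put 0 members higher and 1, Igfbp5, lower, beside 9.81% and 6.65% of all tested genes. DESeq2 called 0 members higher and 1 lower, beside 2.85% and 1.3% of all tested genes. Limma voom called 0 members, beside 0 of all tested genes. The groups did not overlap for 4 of 10 members by CPM of the column total (Igf1 and Igf1r higher, Igfbp5 and Igfbp7 lower), beside 50.1% of all tested genes (23.4% higher and 26.6% lower). A replicate block in edgeR gave 0 members, beside 0.281% of genes higher and 0.166% lower, and limma on log2 of RPKM + 0.1 called Igfbp5 lower, beside 0.774% lower and 0.299% higher. The median log2 fold change was 0.39 over the members and -0.02 over all tested genes. The ratio had the same sign in both replicate numbers for 7 of 10 members, beside 68.3% of the 10522 genes from 5 CPM.

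**Figure D4:**
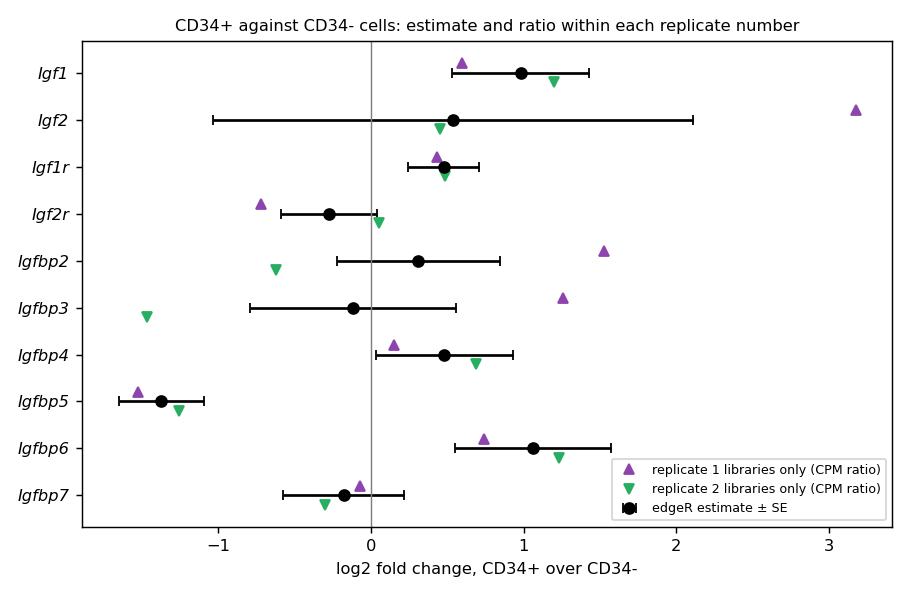
Log2 fold change of CD34+ over CD34- cells (x axis) for each IGF family gene (y axis); dots with bars are the edgeR estimate ± SE over 2 libraries per group, and triangles are the log2 CPM ratio within replicate 1 (up) and replicate 2 (down). Igfbp5 is at -1.37 with both triangles close by, whereas the triangles of Igfbp3 and Igfbp2 lie on opposite sides of 0.

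Of 7 further IGF family genes, 2 passed the filter on low counts. Insrr, an orphan relative of the insulin receptor, was 22.4 and 37.4 CPM in CD34+ libraries and 2.57 and 12.2 CPM in CD34- libraries (log2 ratio 1.99, SE 0.72, adjusted p = 0.273, edgeR), so the groups were apart without passing. Insr, the insulin receptor, overlapped at 28.0 and 39.8 CPM in CD34+ libraries and 36.5 and 32.4 CPM in CD34- libraries. Igfbp1 had 1 and 2 reads in CD34+ libraries and 70 and 2 reads in CD34- libraries.

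All 11 genes of binding protein proteases and their inhibitors were tested. Of these, 0 passed (edgeR). At an unadjusted p of 0.05 edgeR put 2 higher and 1 lower, beside 9.81% and 6.65% of all tested genes. The log2 fold change was positive for 8, beside 6756 of all 13875 tested genes. The median was 0.45, beside -0.02 over all tested genes. Pappa, the protease PAPP-A that cuts IGFBP4 and IGFBP5, was 63.5 and 136 CPM in CD34+ libraries and 40.9 and 31.2 CPM in CD34- libraries (log2 ratio 1.49, SE 0.39, adjusted p = 0.207, edgeR). Htra3, a secreted serine protease gene, was 312 and 467 CPM in CD34+ libraries and 154 and 213 CPM in CD34- libraries (1.09, SE 0.35, adjusted p = 0.240, edgeR). The groups were apart for both genes. The collagenase gene Mmp13 lay the other way at 16.0 and 13.0 CPM in CD34+ libraries and 81.8 and 414 CPM in CD34- libraries (-4.12, SE 0.81, adjusted p = 0.173, edgeR).

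Of 6 genes of the growth hormone axis, which drives Igf1 in liver, 0 passed (edgeR), with a median log2 fold change of 0.22. At an unadjusted p of 0.05 edgeR put 1 higher and 0 lower, beside 9.81% and 6.65% of all tested genes. Stat5a, a transcription factor of that axis, was 55.5 and 34.4 CPM in CD34+ libraries and 20.1 and 16.9 CPM in CD34- libraries (log2 ratio 1.31, SE 0.32, adjusted p = 0.193, edgeR). The receptor gene Ghr overlapped at 33.6 and 80.2 CPM in CD34+ libraries and 44.2 and 75.7 CPM in CD34- libraries.

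Downstream of the receptor, 26 of 27 genes of adaptors, PI3K and AKT signalling were tested and 0 passed (edgeR). At an unadjusted p of 0.05 edgeR put 2 higher and 3 lower, beside 9.81% and 6.65% of all tested genes. The median log2 fold change of these 26 genes was -0.08, beside -0.02 over all tested genes. It was positive for 9 and negative for 17, beside 6756 and 7119 of all 13875 tested genes. The adaptor gene Irs2 was 421 and 231 CPM in CD34+ libraries and 104 and 132 CPM in CD34- libraries (log2 ratio 1.48, SE 0.39, adjusted p = 0.207, edgeR). Its relative Irs1 was 23.8 and 32.7 CPM in CD34+ libraries and 36.2 and 42.4 CPM in CD34- libraries (-0.46, SE 0.28, adjusted p = 0.434, edgeR), a gene added after its values were seen. The regulatory subunit gene Pik3r3 and the adaptor gene Shc1 were also lower in both CD34+ libraries. Pik3r3 was 9.69 and 9.52 CPM in CD34+ libraries and 15.7 and 26.5 CPM in CD34- libraries, and Shc1 was 77.3 and 84.0 CPM in CD34+ libraries and 129 and 125 CPM in CD34- libraries.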

How the data were processed

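RNA-seq tables of 4 libraries were used. Per the submitters' processing notes, the build was mm9 and the tools included HTSeq, edgeR, TopHat2 and Bowtie2; the sources used here give neither versions nor annotation nor strand setting. The authors deposited whole-number counts of reads for 22609 genes, RPKM values for the same genes and FPKM values for 22558 genes, which their name for the table calls bias-adjusted. Each table holds 14 further columns of values that match no sample here, and they were not used.

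Counts were tested with edgeR 4.0.16 in R 4.3.3 (quasi-likelihood F test, TMM scaling, filterByExpr, group as the only term, Benjamini-Hochberg over all 13875 tested genes at 0.05, two-sided). SE is the log2 fold change over the square root of F. The fit had 2 residual and 4.17 prior degrees of freedom. An exact permutation test of 2 against 2 libraries cannot go below p = 0.333 and was not run. CPM printed are by column total, and TMM factors lay between 0.961 and 1.05. RPKM and FPKM were tested with limma 3.58.1 on log2 of the value + 1, for genes at 1 or more in 2 libraries, a scale that understates changes of low genes. DESeq2 1.42.0 was an alternative. Methods were tested on simulated data. Precision follows from the depth, 10322354 to 14633561 counts, and reads of amplified RNA are not independent molecules.

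The members and gene lists were chosen with earlier results of these data known. Named are all 10 members, Fap and Cd34, up to 4 genes per pathway list with an unadjusted p under 0.05 and a mean of 5 CPM, 5 genes closest in pattern to Igf2 and to Igf1, markers of other cell types and sex-linked genes, of which 1 gene is not reported here; further genes were named after their values were seen, among them Insr, Igfbp1, Ghr, Lum, Col1a1, Igf2as, H19 and Ins2. Sequences are from RefSeq (GRCm38.p6), where all 10 members matched by symbol with 14 starts.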

Additional observations from a re-analysis of the deposited data

How the results depend on the processing

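Over 15 alternatives, Igf1, Igf1r, Igfbp5 and Igfbp6 kept their direction in all of them. Igfbp5 passed by DESeq2 (log2 fold change -1.35), by edgeR without a filter on low counts (-1.46) and by limma on log2 of RPKM + 1 (-1.75) and of RPKM + 0.1 (-1.78), so that 1 member was called in each of these settings. Its adjusted p lay between 0.0013 and 0.573 over the alternatives. By limma on log2 of FPKM + 1, Igfbp2 (-0.25) and Igfbp4 (-0.15) turned negative. Leaving out 1 library at a time, with a lone library assumed to vary like the other group, gave log2 fold changes from -1.59 to 5.39 for Igf2, -0.69 to 0.021 for Igf2r, -0.31 to 1.30 for Igfbp2, -0.97 to 0.83 for Igfbp3, -0.042 to 0.84 for Igfbp4 and -0.39 to 0.022 for Igfbp7. The cause was not tested.

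Over all genes, 0 were called by edgeR, by limma voom, and without any 1 library. Library size scaling, upper-quartile scaling and a filter of 1 CPM in 2 libraries called 2 higher and 0 lower each. DESeq2 called 396 higher and 180 lower, and edgeR without a filter 194 and 137. Limma called 47 and 115 on log2 of RPKM + 1, 22 and 49 on log2 of FPKM + 1, 34 and 88 on log2 of RPKM + 0.1, and 0 without a filter. The median log2 fold change was -0.41, -0.41 and -0.49 on the first 3 of these scales and 0.17 for edgeR without a filter. With the replicate number as a block (replicate block), edgeR called 39 higher and 23 lower and 0 members, with an adjusted p of 0.075 for Igfbp5 and log2 fold changes of -1.37 for Igfbp5 and 1.79 for Igf2. No label says that the numbers pair the libraries. Xist followed the number in both fractions, at 232 and 163 CPM in CD34+ and CD34- replicate 1 and 2.64 and 0.273 CPM in replicate 2. So did Ddx3y, at 34.7 and 38.7 CPM in replicate 1 and 153 and 157 CPM in replicate 2. The deviations of same-numbered libraries from their group means had a correlation of 0.241 across 13875 genes, which are not independent replicates. The fewest reads behind a member's value were 144, for Igf2 in CD34- replicate 1.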
